A study of Drosophila melanogaster with 6 samples.

Results

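The mitochondrial ribosomal protein genes were taken as every gene of the deposited tables whose symbol begins with mRpL or mRpS and a number, which gave 73 of 16508 genes. Of these, 47 are named for the large subunit and 26 for the small subunit. Polyadenylated RNA was sequenced from whole Drosophila larvae at instar 3, in 3 libraries labelled crol-KO and 3 labelled wild-type, each made from a separate pool of 40 larvae. The crol-KO animals carry a deletion of crol, the gene of the zinc-finger protein Crooked legs, which was made by Cas9 and a DsRed donor in y w[1118] stocks and kept over a CyO balancer marked with Tb. The wild-type larvae were of the Oregon strain, so that the deletion and the strain cannot be told apart. Maternally supplied Crol protein may remain in mutant larvae, and the sex of the larvae and their age within the instar are not given.

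Mitochondria carry their own ribosomes, which make the few proteins encoded by mitochondrial DNA, all of them subunits of the respiratory chain or of the ATP synthase. The RNA of these ribosomes is transcribed in the organelle, while their proteins are encoded in the nucleus, made in the cytosol and imported. Some of them descend from proteins of the bacterial ribosome and others were added in the mitochondrial lineage. Classes were set by the number in the symbol, with mRpS24 and mRpS28 added to the bacterial class. By this rule 44 of the 73 genes were counted as having a bacterial counterpart and 29 as mitochondrion-specific, and single members may be misplaced. In Drosophila, a mutant allele of tko, the gene of mitochondrial ribosomal protein S12, slows larval development and causes bang sensitivity, and mRpL12 is needed for growth driven by Cyclin D and Cdk4.

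The libraries held 23637969 to 49236787 expected counts, and a gene was tested if it had at least 10 counts in at least 3 libraries, which 12434 genes and all 73 members did. Groups are called by their labels throughout, because the sample titles and genotype fields give one genotype and the names of the deposited tables the other. In the libraries labelled crol-KO, crol stood at 42.8, 39.1 and 37.0 normalized counts per 1000000 (CPM), against 63.3, 60.6 and 73.2 CPM in those labelled wild-type. Its log2 fold change was -0.73 ± 0.12 (SE, n = 3 each, edgeR adjusted p = 0.0043), and -0.14 (adjusted p = 0.63) once a trend over transcript length was removed. In transcripts per 1000000 (TPM) crol stood at 5.95, 4.11 and 4.55 in libraries labelled crol-KO and at 12.3, 14.3 and 12.2 in those labelled wild-type. The log2 difference was -1.26 (limma on log2(TPM + 1), adjusted p = 0.0022). The log2 fold change of -0.73 is 0.60-fold, so crol RNA was still present under the crol-KO label, although the deletion takes out coding sequence of crol. The reason was not tested. The eye pigment gene w stood at 15.2, 16.6 and 17.9 CPM in libraries labelled crol-KO and at 0.817, 0.623 and 0.561 CPM in those labelled wild-type. Oregon flies are wild type for w and the mutation was made in w[1118] stocks, so these levels of w go against the labels. The balancer carries a w transgene, whose part in them was not tested. Every direction below rests on the labels as given.

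Most mitochondrial ribosomal protein genes had a small positive log2 fold change in libraries labelled crol-KO over those labelled wild-type. At an adjusted p under 0.05 (edgeR quasi-likelihood test, Benjamini-Hochberg over all 12434 genes) 20 members rose, where 15.3% of all tested genes rose, and 20 of 73 is 27.4%. A single member, mRpS6, fell, where 17.8% of all tested genes fell, and the remaining 52 did not pass the test. The log2 fold change was positive for 69 members and negative for 4, and its median was 0.38 over the members and -0.05 over all tested genes. The quartiles were 0.16 and 0.48 for the members and -0.49 and 0.34 for all tested genes, which are not matched for expression level. They were 0.57 and 0.79 for cytosolic ribosomal protein genes and 0.40 and 0.62 for nuclear genes of the respiratory chain and ATP synthase. A narrow band was thus not particular to the members. In TPM, by contrast, the median was -0.29 for the members and -0.48 for all tested genes. TPM were used without TMM or other scaling between libraries, so each difference in TPM is to be read beside that -0.48. The direction of the family as a whole depends on the scale and its normalization, while its place above the median gene does not. On the TPM scale mRpL49 rose, where 3.51% of all tested genes rose, and 31 members fell, where 47.0% fell (limma on log2(TPM + 1), adjusted p under 0.05). The difference there was positive for 7 members, mRpL49, mRpL9, mRpS21, mRpS26, mRpL2, mRpS28 and mRpS31, and negative for 66. The other members that rose by normalized counts thus had a negative value in TPM. In whole larvae a difference in the number of cells that hold these transcripts and a difference in their amount per cell cannot be told apart.

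Only mRpL49 among the 73 also had an absolute log2 fold change above 1, where 13.6% of all tested genes passed both thresholds in either direction. The CPM values of the groups did not overlap for 39 members, 38 of them higher in libraries labelled crol-KO and 1 lower, where 23.7% of all tested genes were separated upward and 26.5% downward. The count of 20 depended on single libraries. It was 6 without crol-KO replicate 2 (all tested genes, 9.15%) and 9 without crol-KO replicate 3 (8.18%). Without wild-type replicate 1 it was 10 (9.03%), and without wild-type replicate 3 it was 39 (18.4%). The share of all tested genes that rose thus moved as well, and 6 of 73 was not above it. Wild-type replicate 2 had the lowest CPM of the 6 libraries for 67 members, and crol-KO replicate 2 the highest for 50. Of the 21 members that passed, 6 passed again whichever library was left out, namely mRpL49, mRpL9, mRpS21, mRpS22, mRpS26 and mRpS31. None of the other members that rose passed without crol-KO replicate 2.

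**Figure D1:**
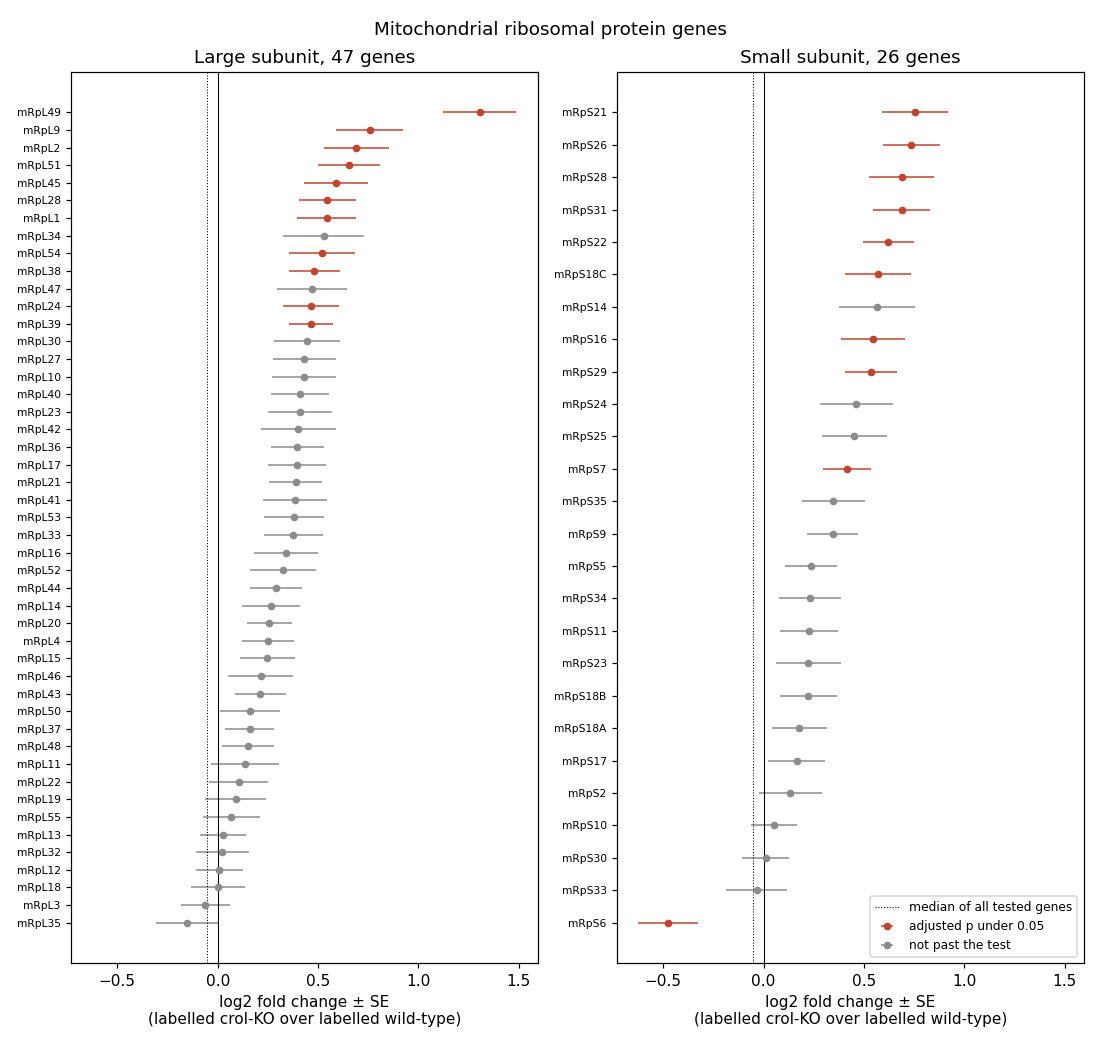
Log2 fold change (labelled crol-KO over labelled wild-type) of each of the 73 genes, with its standard error as a bar, by subunit; red points passed at an adjusted p under 0.05 and the dotted line is the median of all tested genes at -0.05. Values of 69 genes lie right of 0, mRpL49 lies alone at 1.31 and mRpS6 at -0.48, while on the TPM scale the median of the 73 genes is -0.29.

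mRpL49, an X-linked gene of a mitochondrion-specific protein of the large subunit, had the largest log2 fold change of the 73. It stood at 30.8, 35.8 and 32.3 CPM in libraries labelled crol-KO, against 14.0, 9.89 and 16.2 CPM in those labelled wild-type. Every library labelled crol-KO was thus above every library labelled wild-type, at 2.47-fold by the fit. The log2 fold change was 1.31 ± 0.18 (SE, n = 3 each, edgeR adjusted p = 0.0020), and between 1.16 and 1.53 with any library left out. In TPM the gene stood at 38.3, 34.0 and 35.8 in libraries labelled crol-KO and at 24.9, 21.6 and 24.8 in those labelled wild-type, with a log2 difference of 0.58 (limma on log2(TPM + 1), adjusted p = 0.0097). It was the single member that rose on both scales.

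mRpL49 has 2 annotated transcripts, and the mean transcript length that RSEM assigned to it also separated the groups. That length was 711, 713 and 703 bases in libraries labelled crol-KO and 689, 681 and 686 bases in those labelled wild-type, which corresponds to a greater share of the longer transcript in libraries labelled crol-KO. No exon of another gene overlaps mRpL49 in the Release 6 annotation. None of its nearest neighbours on the chromosome passed as higher, with log2 fold changes of -0.13 for Flad1, 0.097 for CG4404, -0.17 for Brms1 and -0.34 for CG4645, of which CG4645 passed at an adjusted p of 0.042.

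Among the genes of large subunit proteins counted as having a bacterial counterpart, 5 of 28 rose, mRpL9, mRpL2, mRpL28, mRpL1 and mRpL24, and 23 did not pass. That is 17.9%, close to the 15.3% of all tested genes that rose. mRpL9, whose bacterial counterpart binds at the base of the L1 stalk, stood at 33.2, 40.1 and 38.2 CPM in libraries labelled crol-KO, against 24.2, 17.0 and 24.7 CPM in those labelled wild-type. The groups did not overlap, and the log2 fold change was 0.76 ± 0.17 (SE, adjusted p = 0.012). mRpL2, whose bacterial counterpart lies near the peptidyl transferase centre, stood at 25.8, 31.0 and 26.3 CPM in libraries labelled crol-KO. In those labelled wild-type mRpL2 stood at 18.0, 13.6 and 19.9 CPM. Its groups were also apart, at a log2 fold change of 0.69 ± 0.16 (SE, adjusted p = 0.016), with a p of 0.058 when crol-KO replicate 2 was left out. In TPM the values of both genes were close between groups, at log2 differences of 0.09 for mRpL9 and 0.03 for mRpL2.

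mRpL1, the protein of the mobile L1 stalk beside the exit site of tRNA, had a log2 fold change of 0.54 ± 0.15 (SE, adjusted p = 0.027), which was -0.11 on the log2(TPM + 1) scale. mRpL24, whose bacterial counterpart lies at the exit of the tunnel and starts assembly of the large subunit, had 0.47 ± 0.14 (SE, adjusted p = 0.037), and -0.19 on the TPM scale. Both lost the call under several left-out libraries, and mRpL24 kept it under 1 of 6. mRpL4, mRpL22 and mRpL23, whose bacterial counterparts also lie along the exit tunnel, had log2 fold changes of 0.25, 0.10 and 0.41 and did not pass. mRpL10, mRpL11 and mRpL12, whose bacterial counterparts form the stalk that binds translation factors and its base, had 0.43, 0.14 and 0.01 and did not pass either. mRpL12 stood at 20.1, 22.2 and 20.9 CPM in libraries labelled crol-KO and at 22.1, 18.6 and 22.2 CPM in those labelled wild-type, and the groups overlapped.

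Of the 19 large subunit proteins counted as mitochondrion-specific, 6 had genes that rose, mRpL49, mRpL51, mRpL45, mRpL54, mRpL38 and mRpL39. That is 31.6%, where 15.3% of all tested genes rose. mRpL51 stood at 19.4, 22.9 and 19.5 CPM in libraries labelled crol-KO, against 13.1, 10.8 and 15.5 CPM in those labelled wild-type. The groups did not overlap, at a log2 fold change of 0.65 ± 0.15 (SE, adjusted p = 0.016), while on the TPM scale the difference was -0.013. mRpL45, which in mammals lies at the exit of the tunnel and holds the ribosome to the inner membrane, had a log2 fold change of 0.59 ± 0.16 (SE, adjusted p = 0.027) and -0.06 in TPM. mRpL38, a protein of the central protuberance in mammals, had 0.48 ± 0.13 (SE, adjusted p = 0.025) and -0.18 in TPM. Other members known from that part of the mammalian ribosome did not pass, at 0.41 for mRpL40, 0.21 for mRpL46 and 0.15 for mRpL48. The log2 fold change of mRpL39 was 0.46 (adjusted p = 0.017) and that of mRpL54 was 0.52 (adjusted p = 0.044), against -0.20 and -0.13 on the TPM scale.

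In the small subunit 9 of 26 genes, or 34.6%, rose and mRpS6 fell, where 15.3% of all tested genes rose and 17.8% fell. mRpS21, the counterpart of a bacterial protein of the platform, stood at 23.4, 30.6 and 29.0 CPM in libraries labelled crol-KO, against 16.5, 13.6 and 19.2 CPM in those labelled wild-type. mRpS26, which has no bacterial counterpart, stood at 23.0, 29.4 and 27.6 CPM in libraries labelled crol-KO, against 16.2, 14.0 and 17.9 CPM in those labelled wild-type. For both genes the lowest library labelled crol-KO was above the highest labelled wild-type. Their log2 fold changes were 0.75 ± 0.16 (SE, adjusted p = 0.012) and 0.74 ± 0.14 (SE, adjusted p = 0.0075), and 0.07 and 0.06 on the TPM scale.

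mRpS31, a mitochondrion-specific protein, stood at 23.7, 26.4 and 25.8 CPM in libraries labelled crol-KO, against 16.0, 13.0 and 18.2 CPM in those labelled wild-type. mRpS28, related to the bacterial protein S1, stood at 20.03, 26.2 and 23.7 CPM in libraries labelled crol-KO, against 15.3, 11.8 and 16.3 CPM in those labelled wild-type. Neither gene had overlapping groups, and both had a log2 fold change of 0.69 (SE 0.14 and 0.16, adjusted p = 0.0096 and 0.015) that was 0.02 on the TPM scale. mRpS29, the GTP-binding protein known in mammals as death-associated protein DAP3, had 0.53 ± 0.13 (SE, adjusted p = 0.018) and -0.12 in TPM. mRpS7, whose bacterial counterpart organizes the head of the small subunit, had 0.42 ± 0.12 (SE, adjusted p = 0.032) and -0.25 in TPM.

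mRpS6, whose bacterial counterpart pairs with S18 on the platform, was the member that fell. It stood at 6.66, 7.44 and 6.24 CPM in libraries labelled crol-KO, against 10.3, 8.06 and 10.02 CPM in those labelled wild-type. Every library labelled crol-KO was below every library labelled wild-type, and the log2 fold change was -0.48 ± 0.15 (SE, n = 3 each, edgeR adjusted p = 0.042). In TPM it stood at 10.7, 9.30 and 8.96 in libraries labelled crol-KO and at 23.3, 21.9 and 19.1 in those labelled wild-type, so the direction was the same on both scales, and the log2 difference was -1.07 on the log2(TPM + 1) scale (limma, adjusted p = 0.0022). The call was lost with any library other than wild-type replicate 2 left out, at log2 fold changes of -0.55 to -0.36 over all 6 and an adjusted p of up to 0.21.

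The partner of S6 in bacteria has 3 relatives in this family, and they did not share one value. mRpS18C rose at 0.57 ± 0.17 (SE, adjusted p = 0.033; -0.11 in TPM), while mRpS18B had 0.22 and mRpS18A 0.18, neither of which passed (adjusted p = 0.26 and 0.34). In mammals the protein of mRpS18A lies in the large subunit, as does that of mRpS30, which had a log2 fold change of 0.01. mRpS18C, mRpS18A and the other members named here for their role alone were chosen after their values had been seen.

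**Figure D2:**
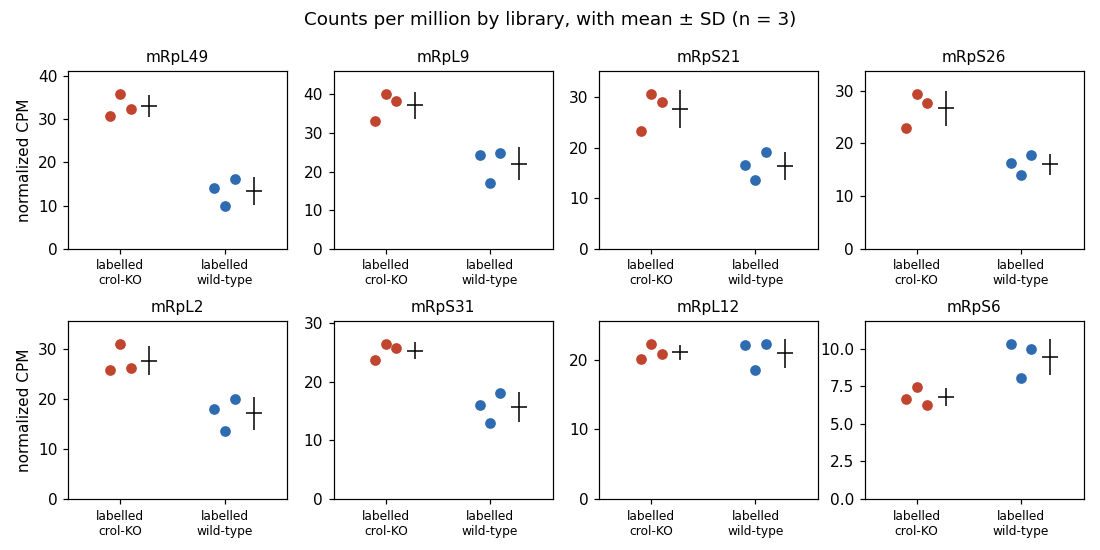
Normalized CPM of 8 genes in each library, with the mean and SD of each group (n = 3) beside the points. The points of the groups are apart for all except mRpL12, with libraries labelled crol-KO above for mRpL49, mRpL9, mRpS21, mRpS26, mRpL2 and mRpS31 and below for mRpS6; on the log2(TPM + 1) scale all of these but mRpL49, mRpL12 and mRpS6 differ by at most 0.09.

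The levels of the 73 genes spanned a limited range. The mean TPM over the 6 libraries, which is scaled for transcript length, lay between 10.5 and 58.9, with a median of 21.01 against 4.97 for all tested genes. The highest were mRpS5 at 58.9 TPM, mRpL33 at 54.0, mRpL42 at 52.8, mRpS21 at 52.7 and mRpL30 at 50.0, and the lowest mRpL37 at 10.5, mRpL15 and mRpS18B at 11.3, mRpL38 at 11.6 and mRpL11 at 12.1. mRpS5, which lies at the entry of the mRNA channel, stood at 59.5, 44.6 and 49.9 TPM in libraries labelled crol-KO and at 68.4, 69.2 and 61.7 TPM in those labelled wild-type. Its log2 fold change by counts was 0.24 (adjusted p = 0.19) and -0.37 in TPM, so its direction was not the same on the 2 scales. mRpL37, the lowest, stood at 10.2, 7.61 and 8.15 TPM in libraries labelled crol-KO and at 12.5, 12.9 and 11.4 TPM in those labelled wild-type. By counts its log2 fold change was 0.16 (adjusted p = 0.34) and it too was negative in TPM, at -0.46.

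Summed over the 73 genes, TPM was 1635, 1469 and 1584 in libraries labelled crol-KO, against 1924, 1927 and 1837 in those labelled wild-type. Normalized CPM summed to 1481, 1677 and 1577 in libraries labelled crol-KO and to 1248, 1026 and 1371 in those labelled wild-type, which is the opposite order. The groups were apart on both scales. Before TMM scaling the members took 0.134, 0.130 and 0.135% of all expected counts in libraries labelled crol-KO. In those labelled wild-type they took 0.149, 0.135 and 0.145%, so the upward order by CPM appeared only after TMM scaling. The TMM factors were 0.906, 0.778 and 0.854 in libraries labelled crol-KO and 1.19, 1.31 and 1.06 in those labelled wild-type. The 20 most abundant genes took 28.8, 33.7 and 31.2% of TPM in libraries labelled crol-KO and 24.3, 21.8 and 24.96% in those labelled wild-type, and the median TPM of all tested genes was 4.10, 3.08 and 3.55 in libraries labelled crol-KO, against 5.81, 7.59 and 4.91 in libraries labelled wild-type. The part of these shares in the order of the sums was not tested. The median rank of the members by TPM among all tested genes, which no scaling moves, was at percentile 79.8, 81.3 and 80.9 in libraries labelled crol-KO and at 78.2, 75.9 and 79.0 in those labelled wild-type.

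The ratio of summed TPM, large over small, was 1.74, 1.78 and 1.73 in libraries labelled crol-KO and 1.77, 1.74 and 1.78 in those labelled wild-type, and the groups overlapped. The median log2 fold change was 0.38 for the 47 genes of the large subunit and 0.35 for the 26 of the small subunit. It was 0.34 for the 44 genes counted as having a bacterial counterpart, of which 10, or 22.7%, rose. For the 29 counted as mitochondrion-specific it was 0.38, and 10 of them, or 34.5%, also rose. Of all tested genes 15.3% rose. The order of the 73 genes by TPM was close to the same within each group, with Spearman correlations of 0.972 to 0.986 among libraries labelled crol-KO and 0.969 to 0.980 among those labelled wild-type. Between groups it was 0.860 to 0.933 over 9 pairs of libraries, which are values across genes that share libraries and carry no test.

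Each gene was also set against the median TPM of the 73 genes in the same library, a ratio in which the scaling of the library cancels. On this ratio the groups did not overlap for 20 members that were higher under the crol-KO label and 20 that were lower, and they overlapped for 33, where 11.0% of all genes were separated upward and 42.4% downward. Members lie on both sides because the median is their own. The difference between groups in mean log2 TPM was also set against the median of each set of genes by itself. It lay within 0.25 of that median for 52 of the 73 members, or 71.2%, and for 33.0% of all genes about their own median. The median distance was 0.16 for the members and 0.41 for all genes, values that carry no test and are not matched for expression level.

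The members farthest from the family were mRpL49 on one side and mRpS6 on the other. The log2 ratio of mRpL49 was 1.01, 0.98 and 0.92 in libraries labelled crol-KO and 0.08, -0.11 and 0.17 in those labelled wild-type, a difference of 0.92. That of mRpS6 was -0.83, -0.89 and -1.08 in libraries labelled crol-KO and -0.02, -0.09 and -0.20 in those labelled wild-type, a difference of -0.83. Next below were mRpL35 at -0.49, mRpL3, a protein of the peptidyl transferase region, at -0.42, mRpS33 at -0.39 and mRpL18 at -0.35, and next above mRpL9 at 0.42, mRpS21 at 0.39 and mRpS26 at 0.38. Apart from mRpS30, whose groups overlapped at -0.35, the 8 highest and 8 lowest differences all came from genes with separate groups.

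**Figure D3:**
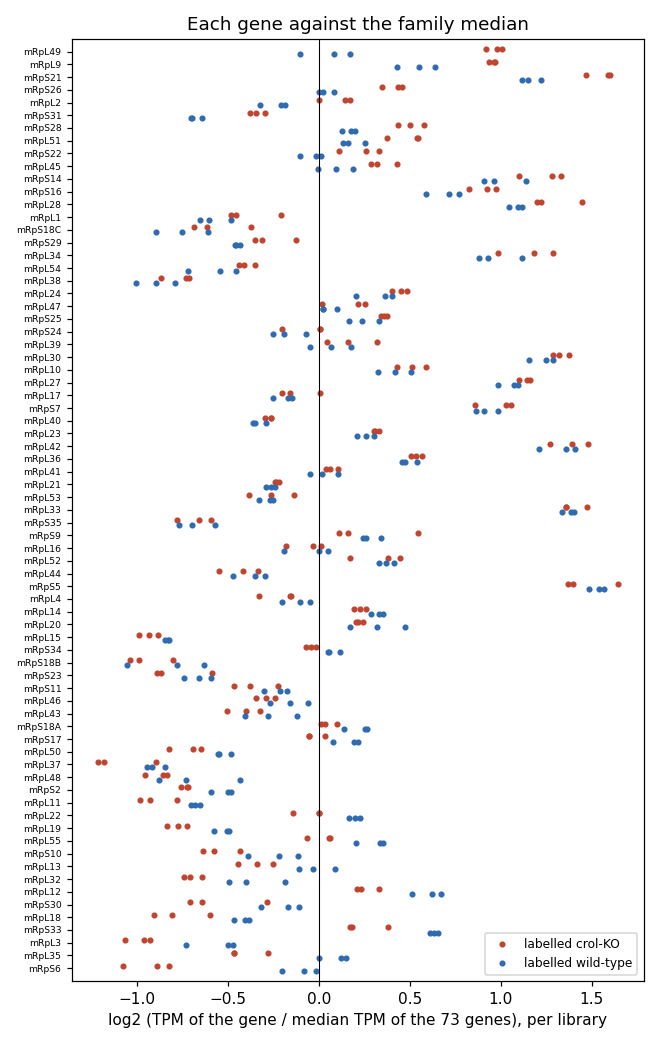
Log2 of the TPM of each gene over the median TPM of the 73 genes in the same library, with 1 point per library, in order of the difference between groups. mRpL49 sits at 0.92 to 1.01 in libraries labelled crol-KO and at -0.11 to 0.17 in those labelled wild-type, mRpS6 sits at -1.08 to -0.83 and at -0.20 to -0.02, and 33 of the genes overlap.

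Transcript length moved with the fold changes of these libraries. Over all 12434 tested genes the Spearman correlation of log2 fold change with length was -0.37, while over the 73 members it was -0.0039. The members are short, and 54 of them are under 1000 bases. Of the 26 members under 700 bases 7 rose (all such genes, 25.4%), and of the 28 of 700 to 1000 bases 4 rose (all such genes, 25.2%). Of the 19 members of 1000 bases or more 9 rose (all such genes, 12.0%), namely mRpL1, mRpS29, mRpL28, mRpL45, mRpS22, mRpS31, mRpL2, mRpL39 and mRpL38.

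With the length trend of each library removed in the fit, 15 members rose and 3 fell, where 16.7% of all tested genes rose and 16.1% fell, and the median was 0.13 for the members and -0.01 for all genes. The 19 longest members again held 9 that rose (all such genes, 16.4%), while the 26 shortest held 4 (17.2%) and the 28 between held 2 (17.7%). mRpL49 remained past both thresholds, at a log2 fold change of 1.08, and mRpS6 fell by 0.73 (adjusted p = 0.0035). mRpL35 and mRpS33 also passed as lower under that fit, at -0.37 and -0.32 (adjusted p = 0.047 and 0.040), against -0.15 and -0.04 in the fit without it. The 5 members that lost the call there were mRpS18C at 0.29, mRpL54 at 0.28, mRpS16 at 0.27, mRpL24 at 0.26 and mRpS7 at 0.20, of which mRpS16 had 0.55 (adjusted p = 0.034) without the length term and -0.10 in TPM.

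**Figure D4:**
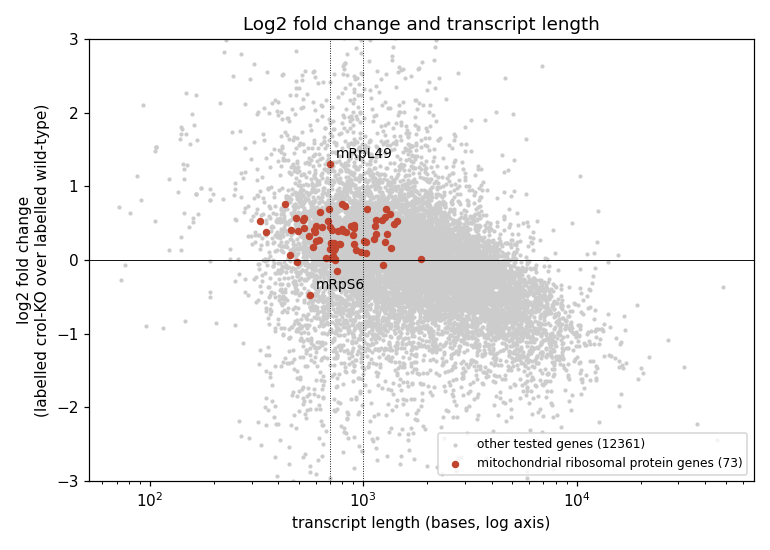
Log2 fold change (labelled crol-KO over labelled wild-type) against transcript length on a log axis, for the 73 genes in red and 12361 other tested genes in grey, with dotted lines at 700 and 1000 bases; 143 genes beyond 3 in size are not drawn. The 73 genes lie at the short end, between mRpS6 at -0.48 and mRpL49 at 1.31, and the grey points fall toward the long end.

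The members lie on every large chromosome arm, with 11 on X, 12 each on 2L and 2R, 17 on 3L and 21 on 3R. The X-linked genes mRpL49 and mRpL38 rose among 11, or 18.2%, where 14.4% of all X-linked tested genes rose. Of the 62 autosomal members 18 rose, where 15.3% of all tested genes rose, a share that includes the X-linked genes. The medians of the members were 0.38 on X and 0.36 on the autosomes. Exons of another gene overlap those of 43 members, on the opposite strand for 42. Of the 43, 14 rose with a median of 0.41, and of the 30 with no overlap 6 rose and 1 fell with a median of 0.25. The library kit marks strand, but whether the authors counted by strand is not given in the sources used here, so reads of a member and of its overlapping gene may not have been told apart.

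The overlapping genes themselves were spread in both directions. On the same strand CG10602, CG33155 and CG32533 did not pass. Of 41 tested on the opposite strand, 8 rose and 6 fell, where 15.3% of all tested genes rose and 17.8% fell. Of the 13 that overlap a member that rose, 3 rose (Gmd beside mRpL28, Zip71B beside mRpL39 and Boh1 beside mRpS22) and 2 fell (qkr58E-2 beside mRpS29 and mib1 beside mRpS31). mRpS6 has no overlapping gene. Its neighbour Cip4 had a log2 fold change of -0.72 (adjusted p = 0.0048) and CG11342 had 0.64 (adjusted p = 0.044). Its neighbours CG15014 at 0.18 and CG33514 at 0.20 did not pass.

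Other genes of the mitochondrial translation system were tested in the same fit, in which 15.3% of all tested genes rose. tko and bonsai, which encode the small subunit proteins S12 and S15 under other symbols, did not pass, with log2 fold changes of 0.30 and 0.14. Of 12 mitochondrial translation factor genes 3 rose, with a median of 0.19. The mitochondrial elongation factor Tu gene CG12736 averaged 53.4 ± 2.43 CPM in libraries labelled crol-KO and 23.6 ± 2.67 CPM in those labelled wild-type (SD, n = 3 each). Its log2 fold change was 1.18, and its relative EfTuM had 0.39 (adjusted p = 0.031). Of 16 genes of mitochondrial tRNA synthetases 1 rose, CG5660 for valine at 0.51 (adjusted p = 0.047), and the median was 0.07.

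Of 14 genes for transcription and replication of mitochondrial DNA 3 rose (all tested genes, 15.3%), with a median of 0.23. They were mtTFB1, a methyltransferase of mitochondrial ribosomal RNA, at 0.71 (adjusted p = 0.0050), the termination factor relative mTerf5 at 0.53 (adjusted p = 0.020) and DNApol-gamma35, the accessory subunit of the mitochondrial DNA polymerase, at 0.63 (adjusted p = 0.013). CG33649, a subunit gene of the mitochondrial amidotransferase counted among the translation factors, has the same values as DNApol-gamma35 in every library, so these are 1 measurement. Mitochondrially encoded genes were not analysed here.

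Of the nuclear genes of the respiratory chain and ATP synthase, which the mitochondrial ribosome supplies with partner subunits, 41 of 69 rose. The other 28 did not pass, and the median log2 fold change was 0.51, where 15.3% of all tested genes rose. By complex, 21 of 34 rose for complex I, 4 of 4 for complex II, whose subunits are all made in the cytosol, 6 of 9 for complex III, 5 of 9 for complex IV and 5 of 13 for the ATP synthase. The 88 cytosolic ribosomal protein genes had a median of 0.64, and 55 rose. With the length trend removed, 21 of the 69 rose and 1 fell, and 29 of the 88 rose, at medians of 0.30 and 0.43. Complexes I to IV and the ATP synthase then held 12, 3, 3, 1 and 2 genes that rose. In that fit 16.7% of all tested genes rose, and 15 of the 73 members rose at a median of 0.13. In TPM the medians were -0.14 for the respiratory chain and ATP synthase, -0.01 for the cytosolic ribosomal proteins and -0.29 for the 73 mitochondrial ribosomal protein genes, against -0.48 for all tested genes, so the direction of all 3 lists turned with the scale. No test of the difference between these lists was made.

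The medians moved with the processing, and those of the members stayed above those of all tested genes throughout. Over the 16 alternatives the median of the members minus that of all genes was between 0.14 with the length trend removed and 0.52 without wild-type replicate 3, and it was 0.43 as reported. The median of the members itself was negative only in TPM.

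**Figure D5:**
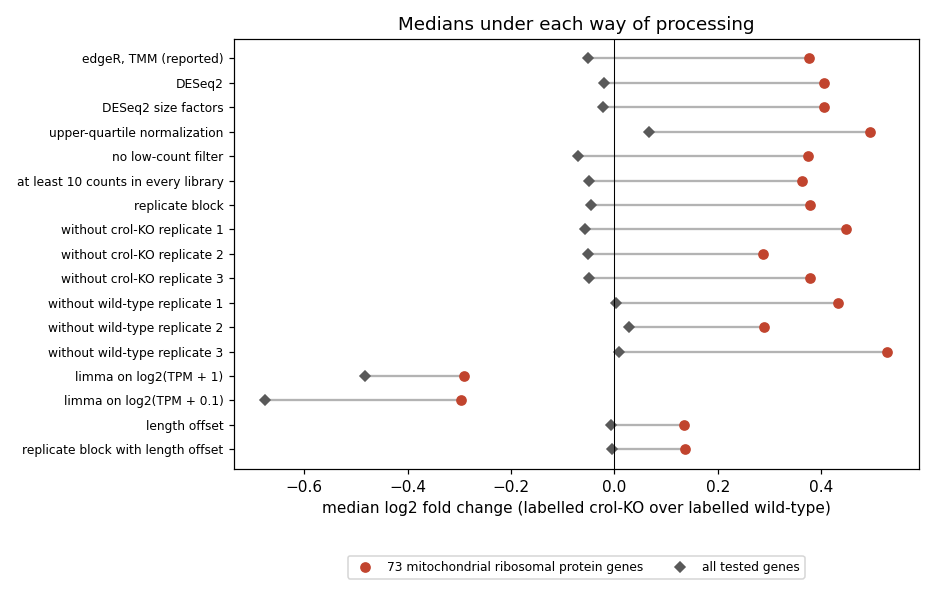
Median log2 fold change (labelled crol-KO over labelled wild-type) of the 73 genes, as circles, and of all tested genes, as diamonds, in the fit reported and under 16 alternatives. The circles lie right of the diamonds in every row, from 0.29 to 0.53 in the fits by counts without a length term, at 0.13 and 0.14 with the length trend removed, and at -0.29 and -0.30 in TPM.

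Marker genes of larval tissues also moved between the groups. The summed TPM of 4 gut markers, all of which rose, was 21624 to 26322 in libraries labelled crol-KO and 8972 to 9546 in those labelled wild-type. Fat body markers summed to 16286 to 18314 TPM in libraries labelled crol-KO and to 28398 to 32072 TPM in those labelled wild-type, with 3 of 5 lower and 1 higher. Neuronal markers (4 of 5 lower) summed to 9.58 to 14.1 TPM in libraries labelled crol-KO and to 22.4 to 37.1 TPM in those labelled wild-type. The sums for imaginal discs (2 of 5 lower) were 5.71 to 8.95 TPM under the crol-KO label and 11.1 to 20.1 TPM under the wild-type label, and those for hemocytes (2 of 4 lower) were 22.2 to 33.3 TPM under the crol-KO label and 44.5 to 76.2 TPM under the wild-type label. Sums overlapped between groups for muscle (1 of 6 higher), salivary gland (1 of 5 lower), testis (4 of 5 higher) and germ line markers, where osk reached at most 0.01 TPM, and no marker of these lists was at 0 in all libraries. Over all tested genes 15.3% rose and 17.8% fell. With the length trend removed, 1 neuronal, 1 disc and 1 hemocyte marker passed as lower and 1 hemocyte marker as higher. The median log2 fold changes of these lists were then -0.41, -0.04 and -0.03, against -0.98, -0.40 and -0.46 before. Gut (4 higher), fat body (3 lower, 1 higher), testis (4 higher) and muscle (1 higher) kept their counts, and 3 salivary gland markers were lower. The part of these markers in the values of the mitochondrial ribosomal protein genes was not tested.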

How the data were processed

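The authors trimmed reads with Trim Galore 0.6.1, aligned them to dm3 with STAR 2.7.3a and ran RSEM 1.3.2, whose deposited output holds an unscaled expected count for each gene and a TPM value, scaled to 1000000 in each library and for transcript length. Whether a count stands for a read or a pair, and whether strand was used, is not given in the sources used here. Length columns of the deposited tables were used for the length trend. Libraries were grouped by sample title and genotype field, and none was left out. Counts were rounded, filtered at 10 counts in 3 libraries, scaled by TMM and tested with edgeR 4.0.16 in R 4.3.3, with Benjamini-Hochberg adjustment over all genes tested. Each value has 3 libraries a group, for which the smallest two-sided exact permutation p is 0.10. The standard error is the log2 fold change divided by the square root of F. Normalized CPM are TMM-scaled counts per 1000000. The length trend is a lowess curve (span 0.3) of each library over log2 length, removed as an offset. Alternatives were DESeq2 1.42.0, its size factors, upper-quartile scaling, other count filters, leaving out each library, a block for the replicate number, the length offset, and limma 3.58.1 on log2 TPM with a pseudocount of 1 or 0.1. TPM were used as deposited, without TMM factors. The tests were checked on simulated counts.

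The named genes are members past both thresholds, the 8 largest and 8 smallest log2 fold changes among those that passed, the 5 highest and 5 lowest by TPM, members whose call turns under the length offset, and crol and w. Members were matched to Release 6 names (73 of 73) for chromosome arm, neighbours and overlapping exons, and coordinates are left out because the files rest on dm3. The members, lists, markers and tests were chosen with earlier results of these data known.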

Additional observations from a re-analysis of the deposited data

How the results depend on the processing

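Over 16 alternatives, the count of members that rose (20 as reported) was 38 with upper-quartile scaling, where 20.4% of all tested genes rose. It was 12 with the replicate block (all tested genes, 10.1%) and 11 with the block and length offset (13.1%). It was 1 on log2(TPM + 1) (3.51%) and on log2(TPM + 0.1) (3.47%), and 6 to 39 over the leave-one-out fits (8.18 to 18.4%). The count that fell (1 as reported) was 31 on log2(TPM + 1), where 47.0% of all tested genes fell. It was 24 on log2(TPM + 0.1) (48.9%) and 3 with the length offset (16.1%). It was 0 with DESeq2 (17.9%), DESeq2 size factors (16.6%), upper-quartile scaling (13.4%), no count filter (14.0%) and the block (12.5%). In the leave-one-out fits it was 0 to 1 (8.90 to 17.6%). At an unadjusted p under 0.05 it was 1 in DESeq2, in edgeR as reported and with the block, and 0 with upper-quartile scaling. The median log2 fold change was 0.13 with the length offset, 0.14 with block and offset, -0.29 on log2(TPM + 1), -0.30 on log2(TPM + 0.1), and 0.29 to 0.53 in the leave-one-out fits. A single member passed both thresholds under each of the 16, mRpL49 under 14 and mRpS6, as lower, on both TPM scales. Upper-quartile scaling moved the median of all genes by over 0.1, to 0.07 against -0.05 as reported, and TPM moved it to -0.48. Of all calls, 46.2% were higher as reported, 60.4% with upper-quartile scaling and 6.96% on log2(TPM + 1).

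Of 384 values of the 24 members named for their fold change or level, 281 kept direction and call, 65 lost the call, 4 gained it and 34 turned in sign. On log2(TPM + 1) and log2(TPM + 0.1) the log2 differences that turned were -0.11 and -0.12 for mRpL1, -0.49 and -0.53 for mRpL11, -0.38 and -0.42 for mRpL15, -0.19 and -0.20 for mRpL24, -0.22 and -0.22 for mRpL30, -0.29 and -0.30 for mRpL33, -0.46 and -0.51 for mRpL37, and -0.18 and -0.19 for mRpL38. They were -0.20 and -0.21 for mRpL39, -0.26 and -0.26 for mRpL42, -0.013 and -0.013 for mRpL51, -0.13 and -0.14 for mRpL54, -0.40 and -0.43 for mRpS18B, -0.12 and -0.13 for mRpS29, -0.37 and -0.38 for mRpS5, and -0.25 and -0.25 for mRpS7. With the length offset, and with the replicate block beside it, mRpL11 was at -0.089 and -0.087. The cause of these changes was not tested.

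The replicate numbers of the labels gave no sign that libraries were paired. Libraries of the same number deviated from their group means with correlations of -0.31 to 0.013 and a mean of -0.11. The mean for different numbers was 0.055. Deviations within a group sum to 0, so that mean largely follows from the other and adds no evidence. Under the replicate block 12 of the 21 calls were kept, and the log2 fold change of mRpL49 was 1.33. The standard error was 0.15 for mRpS6, at 6.24 to 10.3 CPM, and 0.18 for mRpL49, at 9.89 to 35.8 CPM, so the lower count did not come with the larger error for this pair, and 3 libraries a group limit the precision of all members.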
